A study of Homo sapiens with 10 samples.

Results

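EZH2 and the other subunits of Polycomb repressive complex 2 (PRC2) were examined in 501Mel, an established human melanoma cell line in which the study measured RNA and the binding of the transcription factor IRF4. The gene group held 8 members: EZH2, EZH1, EED, SUZ12, RBBP4, RBBP7, JARID2 and PHF19. Members were chosen by name, and their RNA was read from Ensembl transcripts listed for them. Transcripts were listed for 3 of the 8 genes, as 3 transcripts of EZH2, 1 of EED and 1 of SUZ12, which makes 5 of the 187626 transcripts in the deposited tables. The RNA of EZH1, RBBP4, RBBP7, JARID2 and PHF19 was not analysed here, because the tables pair no transcript with a gene name. IRF4 binding was examined in a window that ran from 50 kb below to 50 kb above EZH2 on chromosome 7.

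For RNA-seq, polyadenylated RNA came from 3 libraries of 501Mel cells that received the small interfering RNA siIRF4 and 3 libraries that received siCTRL. The ChIP-seq was made with eGFP-tagged IRF4 in the same line, in 2 biological replicates that were deposited as peak lists. The labels do not say how the tagged protein was expressed, nor which sequences or times the siRNAs had. Nothing in the labels says that the RNA-seq libraries came from separate cultures, so p-values measure only the spread between these libraries, which may be technical.

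PRC2 is the enzyme complex that methylates lysine 27 of histone H3, a mark of silenced chromatin. EZH2 or its paralogue EZH1 is the catalytic subunit, and neither is active without the partners EED, which binds the finished mark, and SUZ12, the scaffold. RBBP4 and RBBP7 are histone-binding chaperones of the core, while JARID2 and PHF19 are accessory subunits that help to place the complex on chromatin. In melanoma, raised EZH2 and activating mutations of it are known, and EZH2 and EED are known targets of the E2F factors of the cell cycle.

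A peak of tagged IRF4 lay across the 5′ end of EZH2 in both ChIP replicates. The window, given in hg19, was chr7:148454000-148632000, which places EZH2 itself between 148504000 and 148582000 once the 50 kb margins are taken off. RefSeq annotates EZH2 on the minus strand (in GRCh38.p14), so the upper coordinate is the 5′ end. The replicate 1 peak ran from 148580333 to 148583008 (2676 bases) and the replicate 2 peak from 148580214 to 148582842 (2629 bases). They shared 2510 bases, which is 93.8% of the replicate 1 peak and 95.5% of the replicate 2 peak, and their centres lay 142.5 bases apart. Both contained the 5′ end of the span, with their centres 0.33 kb and 0.472 kb inside the span. The span comes from the rounded window, and the exact transcription start in hg19 was not used here. RefSeq gives EZH2 a length of 76909 bases in GRCh38.p14, shorter than the span by more than these offsets. The offsets therefore do not tell on which side of the transcription start the centres lie. The peak files name no build; hg19 and GRCh38 both appear in the submitters' processing notes.

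The peak at the 5′ end of EZH2 scored low in both lists. Its score, the authors' own value per peak, was 119.65 in replicate 1, where the list begins at 100.01 and has a median of 174. In replicate 2 it was 161.24, in a list that begins at 150.01 and has a median of 257. It ranked 6070 of 7568 peaks in replicate 1, with 80.2% of the list scoring higher, and 11795 of 12831 in replicate 2, with 91.9% higher. Among peaks that overlapped between the lists, 88.9% of those in replicate 1 and 95.3% of those in replicate 2 scored higher. The peak was wide: 7.97% of the replicate 1 list and 7.71% of the replicate 2 list were wider. For comparison, 36.2% of the 1892 lowest-scoring peaks of replicate 1 and 22.6% of the 3209 lowest-scoring of replicate 2 overlapped the other list, against 62.1% and 36.8% of all peaks. These shares describe the lists and carry no test.

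**Figure D1:**
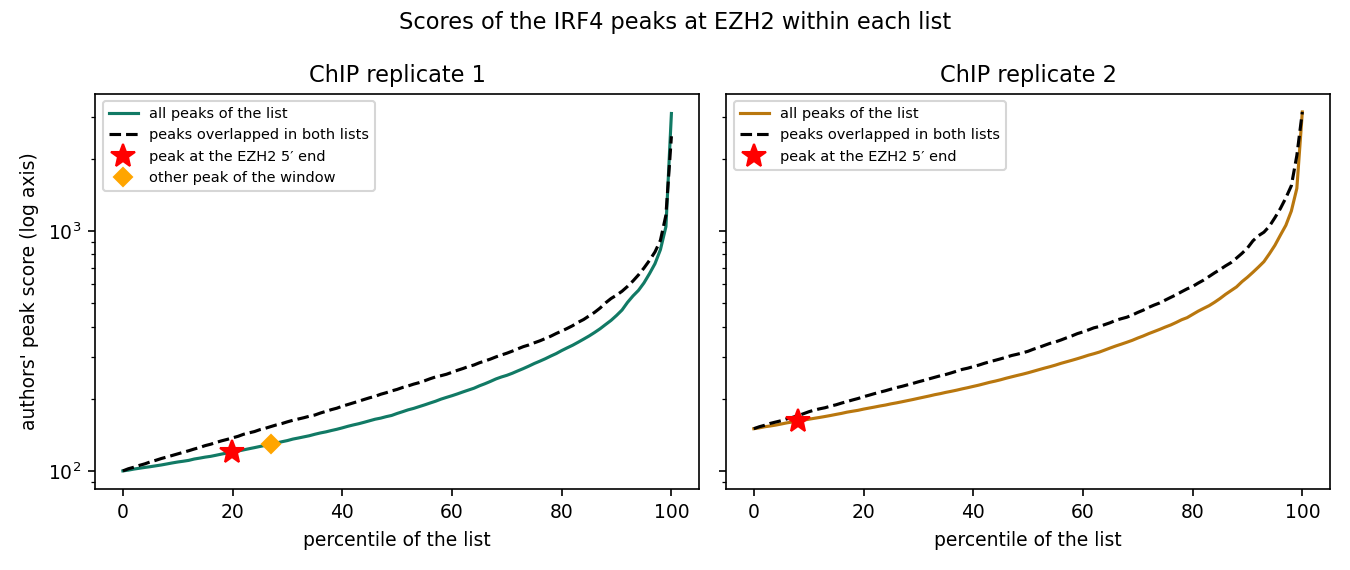
Authors' peak score (log axis) against the percentile within each ChIP list, for all peaks (solid line) and for peaks that overlap between the lists (dashed line). The star, the peak at the EZH2 5′ end, sits at a score of 119.65 in replicate 1 and 161.24 in replicate 2, near the low end of both lists; the diamond is the other replicate 1 peak of the window, at 129.04.

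The window around EZH2 held little else. Replicate 1 had a second peak from 148540395 to 148541137, 743 bases wide with a score of 129.04, whose centre lay 41.2 kb inside the gene. No replicate 2 peak overlapped it. Replicate 2 had no other peak in the window. When the margin was widened to 100 kb, peaks at 81.8 kb and 97.7 kb upstream of the 5′ end were added in replicate 1 (scores 197.18 and 107.32) and a peak at 57.1 kb upstream in replicate 2 (score 397.77), none of them shared. The shared peak at the 5′ end was therefore the only place within 100 kb of EZH2 where the lists met. Of 17043 consecutive windows of the same length on chromosomes 1 to 22 and X, 19.8% held a shared peak, so a shared peak in a window of this size is not rare. With 2 peak lists and no read counts, no test of binding was possible, and the input samples were not analysed here.

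**Figure D2:**
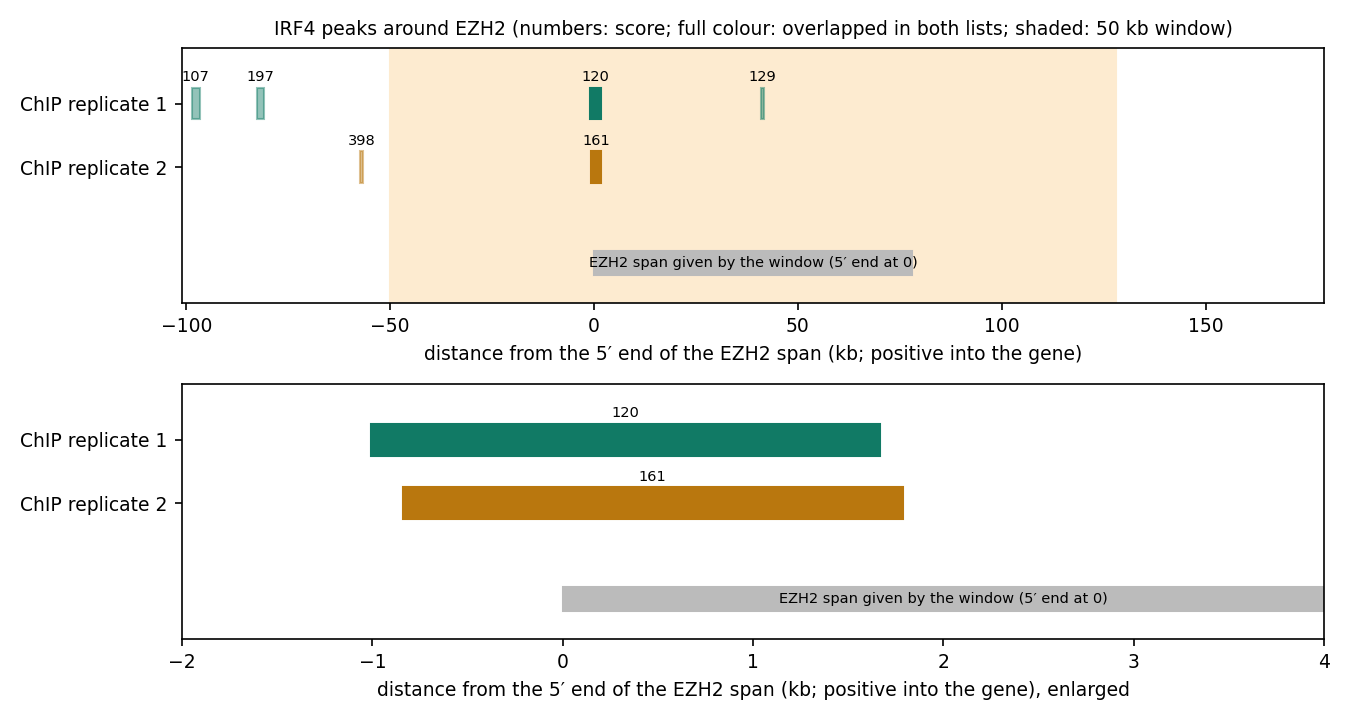
Position of the deposited IRF4 peaks by distance from the 5′ end of the EZH2 span (kb, positive into the gene), with the authors' scores above them and an enlargement below. The only pair of overlapping peaks spans the 5′ end; the remaining 4 peaks, drawn pale, appear in 1 list each.

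The promoter sequence of EZH2 is shown because the shared peak lies over that end of the gene. RefSeq gives 2 start sites for EZH2 in GRCh38.p14, and each window runs from 250 bases before to 50 bases after the start, on the minus strand, 5′ to 3′. The first is chr7:148884242-148884541 and the second chr7:148883436-148883735. Capitals mark an E2F octamer, TTTGGCGC.
EZH2 start 1: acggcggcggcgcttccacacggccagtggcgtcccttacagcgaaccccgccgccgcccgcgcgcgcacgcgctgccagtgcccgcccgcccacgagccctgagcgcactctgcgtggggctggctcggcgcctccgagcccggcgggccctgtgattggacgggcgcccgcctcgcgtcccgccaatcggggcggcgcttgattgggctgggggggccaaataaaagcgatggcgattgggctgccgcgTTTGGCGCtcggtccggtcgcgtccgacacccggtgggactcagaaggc
EZH2 start 2: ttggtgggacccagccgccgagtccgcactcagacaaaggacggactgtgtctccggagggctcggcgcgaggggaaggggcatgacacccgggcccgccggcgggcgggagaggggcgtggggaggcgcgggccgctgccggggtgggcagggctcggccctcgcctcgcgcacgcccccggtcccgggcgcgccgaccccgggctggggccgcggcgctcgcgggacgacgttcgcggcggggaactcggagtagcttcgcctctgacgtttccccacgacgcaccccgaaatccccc

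Both EZH2 windows are rich in CpG, with 46 and 45 CpG dinucleotides in 300 bases against a median of 14 over all 35116 RefSeq windows. Only 2.41% and 2.89% of all windows held more. Neither contained the IRF site (GAAA, any 2 bases, GAAA; found in 3.57% of all windows on either strand), the ETS-IRF composite site (GGAA, any 2 bases, GAAA; 2.82%) or the AP-1 site TGANTCA (7.71%). These letters are absent from these windows only; the peaks are several times wider, and no sequence in their build was used. The E2F octamer TTTGGCGC, present in 0.652% of all windows, began at base 2 after the first EZH2 start, in the gene's orientation.

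The same search covered 13 windows of all 8 genes, each of which has an entry in RefSeq. None held the IRF site, the ETS-IRF composite site or TGANTCA. At least 1 of 4 E2F octamers (TTTCCCGC, TTTGGCGC, TTTCGCGC and TTTGCCGC) was present in 4 of the 13 windows, of 4 genes, against 3.31% of all windows. Besides EZH2 these were SUZ12, with TTTCCCGC beginning 189 bases before the start, PHF19, with the same octamer on the opposite strand 152 bases before its second start, and EZH1, with TTTGCCGC on the opposite strand 115 bases before the start. The EED window held none of them and was the poorest in CpG of the 13, with 16. RBBP7 held 54 at its second start, the most of the 13. Each of the 4 octamers contains a CpG. The 13 windows held 16 to 54 CpG against a median of 14 over all windows, and the 3.31% was not matched for this. The matches are a description of the letters and show no binding.

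The total estimated count of the 6 RNA-seq libraries ran from 129989698 to 203758441, the most in siCTRL replicate 2 and the fewest in siCTRL replicate 3. Libraries did not part by label: on the first principal component (33.5% of the variance of log2 CPM), siIRF4 replicate 1 lay at -110 beside siCTRL replicates 1 and 3, and siCTRL replicate 2 at 132 beside siIRF4 replicates 2 and 3. Neither IRF4, the target of the siRNA, nor melanocyte markers were read out here, which leaves the labels without a check on the targeted gene. The fold changes, transcript shares, subunit ratios and counts of calls below are therefore given with all 6 libraries and without siIRF4 replicate 1 and siCTRL replicate 2, which leaves 2 libraries a group. Those left are siIRF4 replicates 2 and 3, at 197 and 83.8 on that component, and siCTRL replicates 1 and 3, at -128 and -175. In them the label cannot be told apart from whatever the component holds, so a gap between the groups cannot be assigned to the siRNA.

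The named EZH2 transcripts together were abundant and similar in both groups. Abundance is given as TPM, a value per length that sums to the same total in each library. The sum of the 3 transcripts was 37.3, 39.5 and 37.8 TPM in siIRF4 replicates 1, 2 and 3 and 34.2, 41.6 and 27.8 TPM in siCTRL replicates 1, 2 and 3. The siIRF4 libraries lay close together, within the range of the siCTRL libraries, whose highest and lowest values were the extremes of all 6. The means were 38.2 ± 1.13 TPM (SD, n = 3) in siIRF4 and 34.5 ± 6.91 TPM (SD, n = 3) in siCTRL. The log2 fold change of siIRF4 over siCTRL was 0.15 (SE 0.172, 95% interval -0.26 to 0.56), with an edgeR adjusted p of 1. In fold terms the interval ran from 0.835 to 1.48, so a 2-fold change in either direction lies outside it. The value moved with single libraries. It was 0.30 without siCTRL replicate 2, 0.03 without siCTRL replicate 3 and 0.29 (-0.13 to 0.72) without siIRF4 replicate 1 and siCTRL replicate 2, and none of these passed the test.

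ENST00000460911.5, of 2591 bases, was the most abundant of the 3 EZH2 transcripts. It stood at 24.9, 26.5 and 23.9 TPM in siIRF4 and at 21.6, 26.9 and 18.4 TPM in siCTRL, by replicate 1, 2 and 3. The groups overlapped, with siCTRL replicate 2 the highest and siCTRL replicate 3 the lowest of the 6. Its log2 fold change was 0.18 (SE 0.176, interval -0.25 to 0.60; edgeR adjusted p of 1), the largest of the 5 transcripts, and 0.31 without siIRF4 replicate 1 and siCTRL replicate 2 (edgeR adjusted p of 0.554). Among the 2099 tested transcripts of like level, 69% had a smaller absolute log2 fold change.

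ENST00000350995.6, the shortest of the EZH2 transcripts at 2477 bases, gave 7.37, 9.82 and 10.5 TPM in siIRF4 and 8.30, 10.8 and 6.43 TPM in siCTRL. Here siIRF4 replicate 1 was the second lowest of the 6 libraries, and siCTRL replicate 2 the highest. Its log2 fold change was 0.12 (SE 0.232, interval -0.44 to 0.67; edgeR adjusted p of 1). Without siIRF4 replicate 1 and siCTRL replicate 2 it was 0.44 (-0.04 to 0.93), with an edgeR adjusted p of 0.436, the lowest that any named transcript reached under any setting. Without siCTRL replicate 3 it was -0.04.

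ENST00000320356.6, the longest at 2639 bases, was the least abundant. It gave 5.04, 3.20 and 3.37 TPM in siIRF4 and 4.30, 3.92 and 2.89 TPM in siCTRL, so that replicate 1 was the highest library in each group. Its log2 fold change was 0.07 (SE 0.273, interval -0.58 to 0.72; edgeR adjusted p of 1). The sign turned, to -0.20, without siIRF4 replicate 1, and it was -0.15 when siCTRL replicate 2 was left out as well. At this level the interval reaches 1.65-fold upwards and 1.49-fold downwards, the widest of the 5.

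With all 6 libraries, the mean shares of the 3 EZH2 transcripts differed between the groups by less than the spread between libraries. ENST00000460911.5 held 65.7% ± 2.13 of their summed TPM in siIRF4 and 64.7% ± 1.62 in siCTRL (SD, n = 3 each), a difference of 0.926 percentage points (exact permutation p = 0.5, two-sided, where 0.1 is the smallest the design allows). ENST00000350995.6 held 24.2% ± 4.11 and 24.5% ± 1.41 (exact permutation p = 1 with n = 3 each). ENST00000320356.6 held 10.2% ± 2.91 and 10.8% ± 1.60 (exact permutation p = 0.7 with n = 3 each). The order of the 3 was the same in every library. The share of ENST00000320356.6 was highest in siIRF4 replicate 1 (13.5%) and siCTRL replicate 1 (12.6%) and lay between 8.11% and 10.4% in the rest. Its difference between the groups, -0.635 percentage points with all libraries, ran from -2.3 to 0.397 when 1 replicate was left out. Without siIRF4 replicate 1 and siCTRL replicate 2 it was -2.99, and the groups no longer overlapped, with 8.11% and 8.90% in siIRF4 against 12.6% and 10.4% in siCTRL. In the same 4 libraries ENST00000350995.6 held 24.9% and 27.9% in siIRF4 against 24.3% and 23.2% in siCTRL, again without overlap. The shares of ENST00000460911.5 overlapped. The 3 shares make up a whole, so they do not move independently. In these 4 libraries the TPM of 45.7% of all 83831 transcripts tested did not overlap between the groups, so a gap in TPM is common. The rate of such gaps among shares within a gene was not computed. These shares of 4 libraries carry no test. The 3 lengths differ by 48 to 162 bases, and the estimated counts split shared fragments among transcripts, so the spread of a single transcript includes that assignment.

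**Figure D3:**
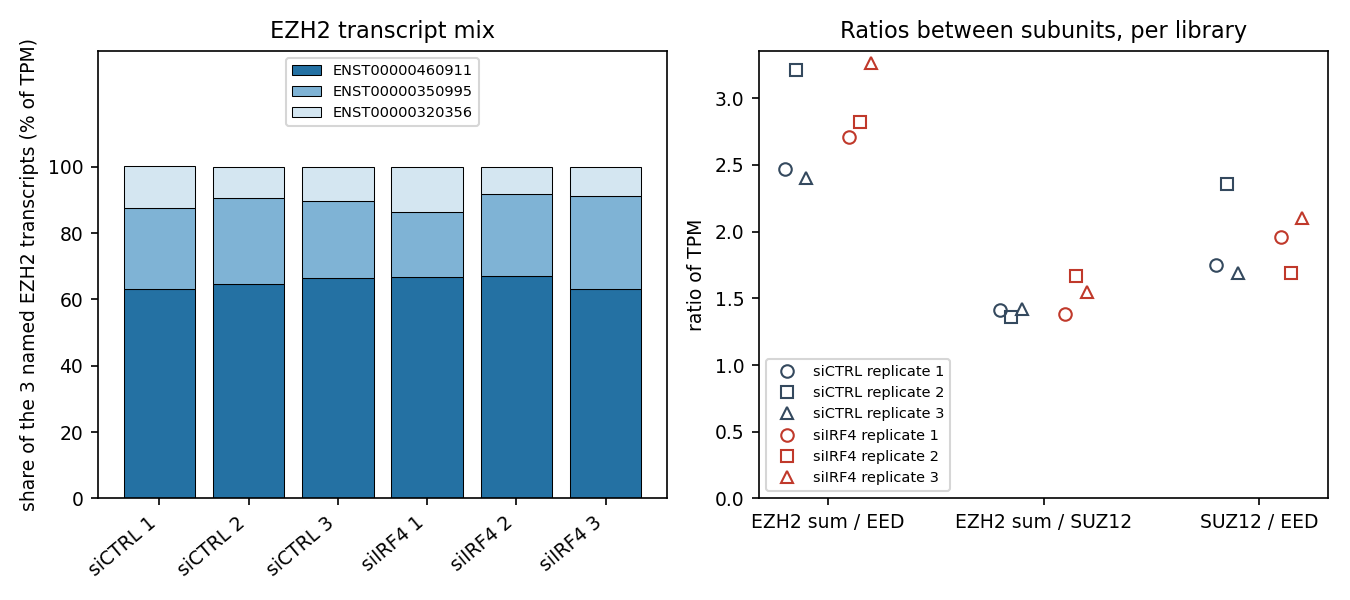
Left, the share of each named EZH2 transcript in their summed TPM for each library; right, the ratios of TPM between subunits for each library. ENST00000460911 takes from 63.2% to 67% in every library, and the ratio of EZH2 to SUZ12 ranges from 1.36 to 1.42 in siCTRL and from 1.38 to 1.67 in siIRF4.

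EED, the subunit that reads the methyl mark, had the smallest SD of log2 TPM within groups of the 5 transcripts. Its transcript ENST00000263360.10 (2223 bases) stood at 13.8, 14.0 and 11.6 TPM in siIRF4 and at 13.9, 12.9 and 11.6 TPM in siCTRL, by replicate. Replicate 3 was the lowest library in each group, and the groups covered nearly the same range. The means were 13.1 ± 1.33 and 12.8 ± 1.15 TPM (SD, n = 3 each). The log2 fold change was 0.05 (SE 0.170, interval -0.36 to 0.45; edgeR adjusted p of 1) and -0.01 without siIRF4 replicate 1 and siCTRL replicate 2. That SD was 0.141, and 15.8% of the 3196 transcripts of like level had a smaller one.

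SUZ12, the scaffold, gave 27.01, 23.7 and 24.3 TPM from ENST00000322652.9 (4491 bases) in siIRF4 and 24.3, 30.6 and 19.6 TPM in siCTRL. As for the EZH2 sum, siCTRL replicate 2 was the highest library, siCTRL replicate 3 the lowest and the siIRF4 libraries lay between them. The means were 25.0 ± 1.77 and 24.8 ± 5.51 TPM (SD, n = 3 each), and the log2 fold change was 0.01 (SE 0.188, interval -0.44 to 0.46; edgeR adjusted p of 1). It was 0.10 without siIRF4 replicate 1 and siCTRL replicate 2. Of the 1479 tested transcripts of like level, 4.94% had a smaller absolute change.

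**Figure D4:**
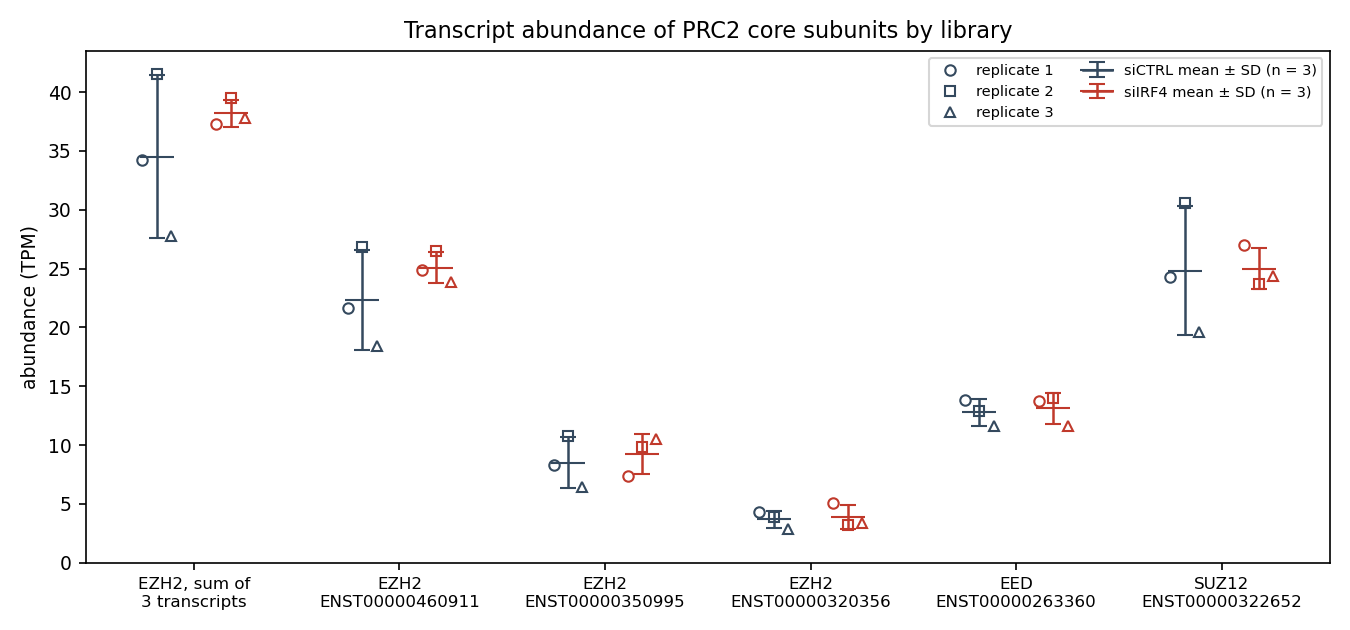
Abundance in TPM of the named EZH2, EED and SUZ12 transcripts and of the EZH2 sum, 1 symbol per library, with the mean and SD of 3 libraries per group. The groups overlap for every transcript, and siCTRL replicate 3 (triangle) is the lowest library for each of the 5.

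Ordered by mean TPM over all 6 libraries, the named transcripts ran from SUZ12 (24.9) and EZH2 ENST00000460911.5 (23.7) over EED (13.0) and EZH2 ENST00000350995.6 (8.88) to EZH2 ENST00000320356.6 (3.79). The ranges of SUZ12 and ENST00000460911.5 overlapped widely, so these neighbours did not differ beyond their spread, while EED lay below both and above ENST00000350995.6 in every library. With its 3 transcripts summed, EZH2 (36.4 TPM) stood above the SUZ12 transcript in every library. Transcripts with a higher mean made up 12.9% of those at 1 TPM or more for SUZ12, 21.9% for EED and 49.6% for ENST00000320356.6. Because other transcripts of these genes may exist in the tables, these are levels of the named transcripts and not of whole genes.

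With all 6 libraries, the proportions between the subunits overlapped between the groups. The EZH2 sum was 2.93 ± 0.290 times EED in siIRF4 and 2.69 ± 0.452 times in siCTRL (SD, n = 3 each; exact permutation p = 0.5). SUZ12 was 1.92 ± 0.207 and 1.94 ± 0.372 times EED (SD, n = 3 each; exact permutation p = 0.9). The EZH2 sum was 1.53 ± 0.144 and 1.39 ± 0.0311 times SUZ12 (SD, n = 3 each; exact permutation p = 0.3). In this last ratio siIRF4 replicates 2 and 3, at 1.67 and 1.55, lay above all siCTRL libraries, and siIRF4 replicate 1, at 1.38, lay among them. The ratio of the EZH2 sum to EED was high in siCTRL replicate 2 (3.21) and siIRF4 replicate 3 (3.26) and at most 2.82 in the rest. Without siIRF4 replicate 1 and siCTRL replicate 2, the groups did not overlap in the ratios of the EZH2 sum. The ratio to SUZ12 was then 1.67 and 1.55 in siIRF4 against 1.41 and 1.42 in siCTRL, a difference of means of 0.198, and the ratio to EED was 2.82 and 3.26 against 2.47 and 2.40, a difference of 0.608. The ratio of SUZ12 to EED still overlapped. The ratios that did not overlap share the EZH2 sum as numerator. In the same libraries the TPM of 45.7% of all transcripts tested did not overlap between the groups either. The rate of such gaps among ratios of transcripts was not computed. With 2 libraries a group these values carry no test, and the libraries were left out with their place on the first component known. In those left, the label and that component cannot be told apart.

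Across the 5 named transcripts, 0 passed an adjusted p of 0.05 in edgeR's quasi-likelihood test, beside 0 of the 83831 transcripts tested (0%), and 0 reached an unadjusted p under 0.05, beside 1791 of all (2.14%). Values of the groups did not overlap for 0 of the 5, against 7.17% of all transcripts tested. Without siIRF4 replicate 1 and siCTRL replicate 2, 10811 of 85498 transcripts (12.6%) reached an unadjusted p under 0.05 in edgeR, with 0 past the adjusted threshold, and 0 of the 5 were among them. The TPM of the groups then did not overlap for 2 of the 5, ENST00000460911.5 and ENST00000350995.6 of EZH2, both higher in siIRF4, against 45.7% of all transcripts. DESeq2 called 192 transcripts, 0.137% of the 140278 with a rounded count above 0, with 0 of the 5 among them. Its own filter can leave transcripts without an adjusted p, so the share of those given one may be higher. All 5 had a higher mean TPM in siIRF4, and their log2 fold changes ran from 0.01 to 0.18 with a median of 0.07. Over all transcripts the median was -0.006 and the median absolute value 0.259. Among transcripts of like level the median absolute value was lower, from 0.099 (for SUZ12) to 0.17 (for ENST00000320356.6). ENST00000460911.5 lay above its like-level median of 0.112, and the other members lay below theirs. As 3 of the 5 are transcripts of EZH2 that split shared fragments, the 5 are not separate observations. The shared sign moved with single libraries. siCTRL replicate 3 was the lowest of the 6 libraries for all 5 transcripts, and siCTRL replicate 2 the highest for 3 of them. How often these ranks, or a higher mean in siIRF4, occur over all transcripts was not counted. Without siCTRL replicate 3, 4 of the 5 log2 fold changes were below 0, and ENST00000460911.5 of EZH2 stood at 0.06. Without siIRF4 replicate 1, 3 of the 5 were below 0 (ENST00000320356.6, EED and SUZ12), and 1 was below 0 without siIRF4 replicate 2 (EED) and without siCTRL replicate 1 (SUZ12). Counting error was below these spreads. Between 642 and 18545 estimated fragments lay behind each value. Averaged per transcript over the 6 libraries (root mean square), the Poisson counting error ran from 0.962% (SUZ12) to 3.31% (ENST00000320356.6). It leaves out the error of assigning shared fragments to transcripts. The coefficient of variation between libraries of a group ran from 5.16% (ENST00000460911.5) to 26.3% (ENST00000320356.6) in siIRF4. In siCTRL it ran from 8.95% (EED) to 25.7% (ENST00000350995.6).

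**Figure D5:**
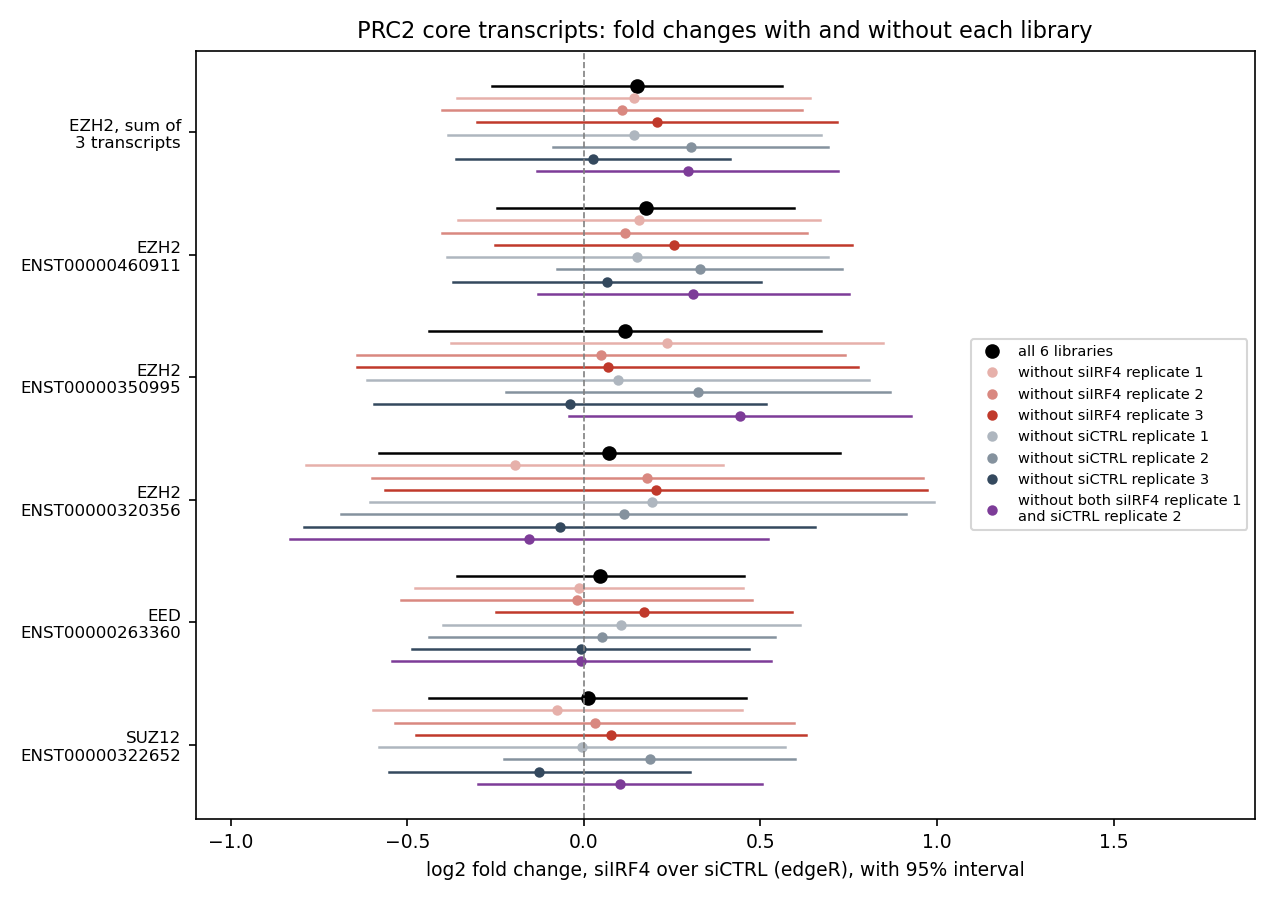
Log2 fold change of siIRF4 over siCTRL with its 95% interval (edgeR) for each named transcript and the EZH2 sum, with all 6 libraries (black) and with libraries left out (colours). Every interval includes 0; the EZH2 sum moves between 0.03 and 0.30 when 1 library is left out.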

How the data were processed

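The authors deposited, per the file headers, 1 table per RNA-seq library with estimated counts, TPM, length and effective length per Ensembl transcript; kallisto, sleuth, Bowtie2, GRCh38 and hg19 are named in the submitters' processing notes, and versions and annotation are not given in the sources used here. The ChIP lists hold the authors' score per peak, with peak names that begin with MACS. Coordinates are counted from 1.

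Estimated counts were rounded and tested per transcript with edgeR 4.0.16 in R 4.3.3 (quasi-likelihood, TMM, filterByExpr, two-sided, Benjamini-Hochberg over all transcripts, no replicate block); the gene-level test and gene lists planned were not run, since transcripts were not paired with genes. For the EZH2 sum, the 3 transcripts were merged and the whole table refitted. Standard errors are the absolute log2 fold change over the square root of F. Transcripts of like level lie within 1.25-fold in mean TPM (for spread) or CPM (for fold changes). Alternatives included DESeq2 1.42.0 and limma 3.58.1. As a check of the code, the edgeR step was run on simulated counts with known fold changes put in. The simulation held no split of the libraries like that on the first component, so it does not measure power in these data. Every pair of libraries differed beyond sampling noise (chi-square per degree of freedom at least 38.8). Every transcript named by identifier for a member is reported. Members, lists and the libraries left out together were chosen with earlier results of these data known.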

Additional observations from a re-analysis of the deposited data

How the results depend on the processing

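The 0 transcripts called between siIRF4 and siCTRL stayed 0 in 15 of 17 alternatives; limma on log2(TPM + 0.1) called 8 and DESeq2 called 192, and the cause was not tested. The count at an unadjusted p under 0.05 was 1791 and ran from 1575 to 4301 when 1 library was left out, with 4301 without siCTRL replicate 2 and 4005 without siIRF4 replicate 1. It was 10811 of 85498 (smallest adjusted p 0.111) without both. No named transcript passed an adjusted p of 0.05 under any alternative; the lowest was 0.436. The EZH2 sum kept its sign throughout (0.03 to 0.30 with 1 library left out, 0.14 to 0.17 with another test, scaling or filter), as did ENST00000460911.5. With 1 library left out, EED ran from -0.02 to 0.17, SUZ12 from -0.13 to 0.19, ENST00000350995.6 from -0.04 to 0.32 and ENST00000320356.6 from -0.20 to 0.20, each turning sign at least once. Without siIRF4 replicate 1 and siCTRL replicate 2 together, ENST00000320356.6 was -0.15 and EED -0.01. An edgeR fit with the replicate number as a block called 0 transcripts, and 2746 had an unadjusted p below 0.05. The EZH2 sum then had a log2 fold change of 0.17, with an SE of 0.121 against 0.172 without the block. Deviations of same-numbered libraries correlated at 0.20, 0.24 and 0.038. Differently numbered libraries were not compared in this way, so whether the numbers pair the libraries stays undecided. The chi-square per degree of freedom between same-numbered libraries was 44.2, 38.8 and 98.1 for replicates 1, 2 and 3. The value for replicate 2 was the lowest of all pairs. For replicates 1 and 2 of both groups, the same-numbered library of the other group was the closest of all libraries. For replicate 3 it was not: siIRF4 replicate 3 lay closer to siIRF4 replicate 2 (40.5) and siCTRL replicate 2 (49.2), and siCTRL replicate 3 to siCTRL replicate 1 (58.7). limma-voom, the shares and ratios without siIRF4 replicate 1 and siCTRL replicate 2, and the windows over the genome were added after the data were seen.

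Near EZH2, replicate 1 had 2 peaks, replicate 2 had 1 and 1 was shared. A margin of 100 kb gave 4 and 2 peaks. A score of at least 150 left 0 peaks in replicate 1, 1 in replicate 2 (the peak at the 5′ end, at 161.24) and 0 shared. The better-scoring 50% of each list left 0 in replicate 1, 0 in replicate 2 and 0 shared. Centres within 100 bases left 0 shared, as they lie 142.5 bases apart.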
